A study of Mus musculus with 12 samples.

Results

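The genes of the disease-associated microglia state were followed in the cerebellum of mice labelled EED-/-. EED is a core subunit of Polycomb repressive complex 2, which trimethylates lysine 27 of histone H3. The 10 genes were chosen by name: the receptor Trem2 and its adaptor Tyrobp, the surface receptors Itgax and Clec7a, the lipid handling genes Apoe and Lpl, the endolysosomal genes Cst7 and Gpnmb, and the secreted factors Spp1 and Igf1. They were found by symbol in the authors' deposited table and joined by Ensembl identifier to the 55385 genes of the count table. Of these 10, 9 passed the filter on low counts and were among the 18091 genes tested; Cst7 did not pass. Polyadenylated RNA of whole cerebellum was sequenced from 3 EED-/- libraries, which the column names call conditional knockouts, and 3 WT libraries. Both groups were C57BL/6 mice at postnatal day 14, and no further allele or agent is listed for either. For the Cre driver, the deleted exons and the cells in which deletion took place, nothing was given in the sources used here. Whether each library is a different animal is not stated in the labels, and p-values therefore measure only the spread between libraries, which may be technical.

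Microglia are the resident macrophages of brain tissue, and in the undisturbed brain they express a homeostatic set of genes that includes P2ry12, Tmem119 and Cx3cr1. Near dying neurons, amyloid or degenerating myelin, and in white matter during early postnatal life, some of them take on a phagocytic state marked by the genes described here. Work in mice places Trem2 and Tyrobp upstream of part of this state: Trem2 binds lipids and lipoproteins, Tyrobp carries the signal to the kinase Syk, and Itgax, Clec7a, Cst7 and Lpl are among the genes that come on late.

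RefSeq promoter windows of build GRCm38.p6, which run from 250 bases before to 50 bases after the first listed start of a gene, were held for 8 of the 10 genes; Tyrobp and Lpl had none among the sequences used here. Windows of 4 genes are shown because they are the receptor at the head of the pathway (Trem2), the surface receptors with the largest changes (Itgax and Clec7a) and a gene whose change did not pass the test (Gpnmb). Capitals mark, on either strand, the pattern TGANTCA, a loose form of the AP-1 motif TGACTCA, and the PU.1 motif GAGGAA.
Trem2, chr17:48346151-48346450, plus strand: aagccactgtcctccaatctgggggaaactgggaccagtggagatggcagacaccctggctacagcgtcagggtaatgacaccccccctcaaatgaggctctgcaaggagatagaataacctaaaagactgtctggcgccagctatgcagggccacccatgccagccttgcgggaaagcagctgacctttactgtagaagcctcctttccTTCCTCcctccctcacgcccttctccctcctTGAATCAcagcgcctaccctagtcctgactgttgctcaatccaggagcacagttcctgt
Itgax, chr7:128129300-128129599, plus strand: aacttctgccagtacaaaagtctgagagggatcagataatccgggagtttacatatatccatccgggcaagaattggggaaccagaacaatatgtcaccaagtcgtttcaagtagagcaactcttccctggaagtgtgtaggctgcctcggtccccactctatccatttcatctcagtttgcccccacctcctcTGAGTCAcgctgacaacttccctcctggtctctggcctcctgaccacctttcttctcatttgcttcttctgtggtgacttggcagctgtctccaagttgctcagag
Clec7a, chr6:129472730-129473029, minus strand: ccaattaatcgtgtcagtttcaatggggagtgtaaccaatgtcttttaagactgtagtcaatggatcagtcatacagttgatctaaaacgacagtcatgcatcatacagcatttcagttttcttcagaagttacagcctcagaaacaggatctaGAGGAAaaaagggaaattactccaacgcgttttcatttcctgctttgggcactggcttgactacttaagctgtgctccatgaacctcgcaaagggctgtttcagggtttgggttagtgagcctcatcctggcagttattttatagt
Gpnmb, chr6:49036268-49036567, plus strand: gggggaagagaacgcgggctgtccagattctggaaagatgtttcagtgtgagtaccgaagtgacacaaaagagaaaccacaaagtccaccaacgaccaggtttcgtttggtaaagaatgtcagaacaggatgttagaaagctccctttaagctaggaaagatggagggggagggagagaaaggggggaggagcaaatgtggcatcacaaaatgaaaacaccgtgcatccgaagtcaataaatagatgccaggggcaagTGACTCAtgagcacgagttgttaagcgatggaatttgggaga
The loose pattern TGANTCA was found in 5 of the 8 windows (Trem2, Itgax, Cst7, Igf1 and Gpnmb), against 7.93% of 27025 mouse promoter windows of the same length. The AP-1 motif TGACTCA itself was found in 2 of 8 (Itgax and Gpnmb) against 5.17%. The matches in Trem2 and Igf1 read TGAATCA and that in Cst7 reads TGATTCA, so these windows fit the loose pattern only. In Itgax the match began 56 bases before the start, and in Gpnmb it began 8 bases after it. GAGGAA was found in 5 of 8 windows (Trem2, Apoe, Clec7a, Spp1 and Igf1) against 28.3% of windows, and the ETS motif GGAAGT in 3 of 8 (Itgax, Cst7 and Spp1) against 24.1%. The matches of GAGGAA and GGAAGT in Spp1 overlap each other. The E-box CACGTG and the M-box TCATGTG, searched because MiT family factors bind such elements, were in 0 of 8 windows, against 7.24% and 3.74% of all windows. Both strands were searched for every motif, and a match describes letters, not binding.

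Each library held between 19621814 and 20366173 estimated counts, so that 1 CPM, the unit of level used below, is about 20 counts. Eed itself was lower in EED-/- libraries, at 11.6, 9.31 and 11.3 CPM, against 20.1, 26.6 and 23.5 CPM in WT libraries (log2 fold change -1.12, SE 0.15, adjusted p = 0.0015). Over all tested genes edgeR called 2125 higher (11.7%) and 2544 lower (14.1%) in EED-/- cerebellum, with a median log2 fold change of -0.03. With upper-quartile scaling the split was 2828 higher and 1786 lower and the median shifted by 0.12, and with library size alone it was 2641 and 1865. The share of counts from mitochondrial genes was 6.45% to 8.04% in EED-/- libraries and 3.21% to 6.37% in WT libraries, and its part in the results was not tested.

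Most of these genes made up a larger share of the counts in libraries of EED-/- cerebellum. Trem2, Tyrobp, Itgax, Clec7a, Lpl and Igf1 rose, by 2.39-fold to 13.4-fold. Spp1 and Gpnmb averaged 2.10-fold and 2.07-fold higher without passing the test, and Apoe, already abundant in WT cerebellum, averaged close to its WT level. Thus 6 of the 9 tested genes were called higher, against 11.7% of all tested genes, and 0 lower, against 14.1%. In the authors' deposited table, calls of higher were made for 7 of the 10, against 6.04% of the 35173 genes with a p-value there; the seventh was Spp1. In 8 of the 9 tested genes, all but Apoe, every EED-/- library lay above every WT library, against 20.1% of all tested genes. For Gpnmb and Spp1 the nearest libraries of the groups were only 1.01-fold and 1.05-fold apart. Itgax and Clec7a passed the low-count filter through their EED-/- libraries, so these counts describe the tested genes only. In whole tissue, more microglia and more RNA of a gene per microglial cell cannot be told apart. Neither can be told apart from a smaller share of RNA from other cells, since CPM is a share of a library: 12 of 12 granule neuron markers were called lower, and they summed to 744, 655 and 882 CPM in EED-/- libraries and 6616, 5763 and 5302 CPM in WT libraries.

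**Figure D1:**
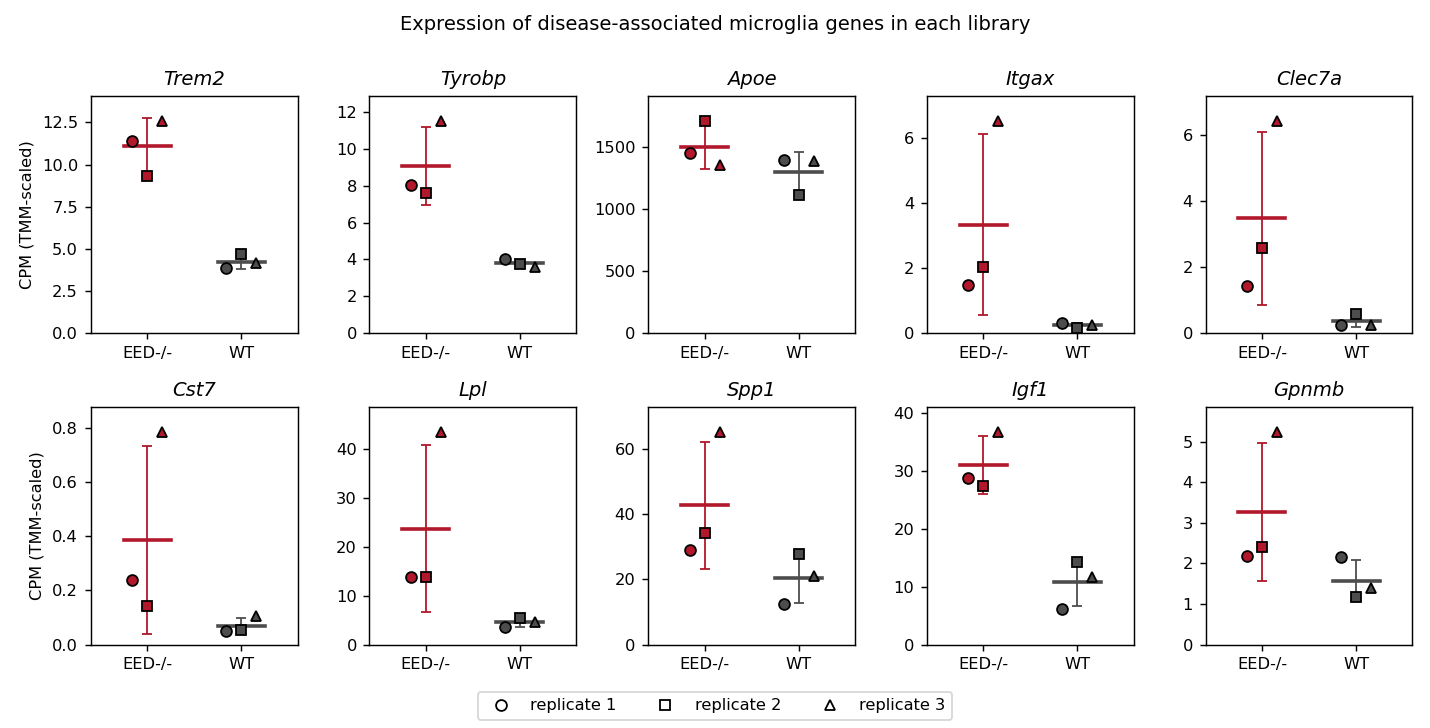
Expression of each of the 10 genes, in TMM-scaled CPM on a linear axis from 0, in EED-/- libraries (red) and WT libraries (grey). Points are libraries with the marker giving the replicate number, and bars show the mean and SD of 3 libraries. EED-/- and WT libraries overlap for Apoe only, though the nearest libraries of the groups are only 1.01-fold apart for Gpnmb and 1.05-fold for Spp1. EED-/- replicate 3 is the highest EED-/- library for every gene except Apoe.

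Trem2 (ENSMUSG00000023992, GRCm38 chr17:48346401-48354147, plus strand) encodes the lipid-sensing receptor of microglia whose promoter is shown above. It had 11.4, 9.31 and 12.6 CPM in EED-/- replicates 1, 2 and 3, against 3.85, 4.72 and 4.19 CPM in WT replicates 1, 2 and 3. The groups stood well apart, with the lowest EED-/- library 1.97-fold above the highest WT library. Means were 11.1 ± 1.66 CPM in EED-/- and 4.25 ± 0.44 CPM in WT libraries (SD, n = 3 each), a log2 fold change of 1.38 with an SE of 0.18 (edgeR, adjusted p = 0.0011).

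Tyrobp (ENSMUSG00000030579, chr7:30413760-30417585, plus strand), also known as DAP12, is the adaptor with an activation motif through which Trem2 signals. Its level was 8.05, 7.62 and 11.5 CPM in EED-/- libraries, against 4.0, 3.76 and 3.62 CPM in WT libraries. All EED-/- libraries were above all WT libraries, and the WT libraries were close together. The change was 2.39-fold (log2 fold change 1.25, SE 0.20, edgeR adjusted p = 0.0031), of a size with that of its receptor.

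Of 20 listed partners and signalling genes of this pair, 16 could be tested. Calls of higher were made for 8, against 11.7% of all tested genes, and of lower for 1, against 14.1%. The median log2 fold change was 0.79, against 0.95 for the homeostatic microglia genes described below and -0.03 over all genes. Plcg2, the phospholipase that Syk activates in microglia, averaged 10.1 ± 0.337 CPM in EED-/- and 4.09 ± 0.202 CPM in WT libraries (2.47-fold, edgeR adjusted p = 0.000614). Vav1, a guanine nucleotide exchange factor of blood-lineage cells, rose 2.65-fold, and the phosphatase Ptpn6, which opposes such signals, rose 2.27-fold. Syk rose by 0.79, Pik3cg by 0.80, Cd33 by 1.02 and Siglech by 1.1 on the log2 scale; Cd33 and Siglech also stand in the homeostatic list below. The kinase Lyn was the gene called lower (log2 fold change -0.49, edgeR adjusted p = 0.0383), a call that was lost without any 1 library other than EED-/- replicate 3, with library size alone, upper-quartile scaling or DESeq2, and without the low-count filter. Inpp5d, a phosphatase that limits the pathway, did not pass (0.47, adjusted p = 0.0511). Without WT replicate 3, 5 genes of this list were called higher.

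Itgax (ENSMUSG00000030789, chr7:128129547-128150657, plus strand) encodes CD11c, an integrin alpha chain of dendritic cells that microglia express in the disease-associated state. It had 31, 43 and 133 counts in EED-/- libraries, or 1.47, 2.02 and 6.51 CPM. In WT libraries it had 6, 3 and 5 counts, or 0.308, 0.161 and 0.258 CPM. Every EED-/- library was above every WT library, and EED-/- replicate 3 stood far above the other two. The fitted change was 13.4-fold (log2 fold change 3.74, SE 0.68, edgeR adjusted p = 0.0061), and 7.29-fold without EED-/- replicate 3 (adjusted p = 0.0045). With so few counts in WT libraries the size of the fold is loosely set, while its direction held in all 3 libraries.

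Clec7a (ENSMUSG00000079293, chr6:129461591-129472779, minus strand) encodes Dectin-1, a receptor for beta-glucans; the GRCm38 annotation lists it as a polymorphic pseudogene. Counts were 30, 55 and 131 in EED-/- libraries, or 1.42, 2.59 and 6.41 CPM. WT libraries had 5, 11 and 5 counts, or 0.257, 0.590 and 0.258 CPM. The order of the EED-/- libraries was that of Itgax, with replicate 3 highest and replicate 1 lowest, and no WT library reached the lowest of them. Clec7a rose 9.32-fold (log2 fold change 3.22, SE 0.64, edgeR adjusted p = 0.0089), and 5.61-fold without EED-/- replicate 3 (adjusted p = 0.0128).

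Apoe (ENSMUSG00000002985, chr7:19696109-19699188, minus strand) encodes the main lipid carrier of the brain, made mostly by astrocytes and, in this state, also by microglia. It had 1448, 1706 and 1350 CPM in EED-/- libraries, against 1397, 1115 and 1387 CPM in WT libraries. The groups overlapped: EED-/- replicate 3, the highest library for the other 9 genes, was the lowest of its genotype and lay below 2 of the WT libraries. The log2 fold change was 0.21 with an SE of 0.14 (edgeR adjusted p = 0.322). Astrocyte and Bergmann glia markers, whose cells also make Apoe, summed to 4775, 5489 and 6614 CPM in EED-/- libraries and to 5985, 5890 and 5669 CPM in WT libraries. Of 12 markers 2 were called higher (1 without EED-/- replicate 1 or 2 or WT replicate 3), against 11.7% of all tested genes, and 3 lower, against 14.1%. Gfap, an intermediate filament, rose 2.23-fold, whereas the glutamate transporter Slc1a3, Gdf10 and Hopx fell by 1.49, 1.83 and 0.96 on the log2 scale. The part of these cells in the level of Apoe was not tested.

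Lpl (ENSMUSG00000015568, chr8:68880491-68907448, plus strand) encodes lipoprotein lipase, which frees fatty acids from lipoproteins. It had 13.9, 13.8 and 43.5 CPM in EED-/- libraries, against 3.54, 5.47 and 4.55 CPM in WT libraries. EED-/- replicates 1 and 2 were nearly equal and above all WT libraries, and replicate 3 was 3.14-fold above their mean. Lpl rose 5.24-fold (log2 fold change 2.39, SE 0.49, edgeR adjusted p = 0.0122), and 3.18-fold without EED-/- replicate 3 (adjusted p = 0.0028). The call was lost without WT replicate 1, 2 or 3 (adjusted p = 0.0828, 0.0756 and 0.0507) and without the low-count filter (adjusted p = 0.101). Skeletal muscle also makes Lpl, and 12 of 12 of its listed markers were called higher. They summed to 130 to 180 CPM in EED-/- libraries and 14.8 to 16.6 CPM in WT libraries. Whether this RNA came from muscle cells or from other cells was not tested. EED-/- replicate 3, highest for Lpl, had the lowest muscle sum of its genotype (129.8 CPM), and the part of muscle RNA in the level of Lpl was not tested.

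Other lipoprotein and cholesterol handling genes went both ways, with a median log2 fold change of 0.02. Of 19 tested, 2 were called higher, against 11.7% of all tested genes, and 3 lower, against 14.1%. Cd36, a scavenger receptor that takes up fatty acids and oxidised lipoproteins, was higher at 1.61, 1.83 and 2.06 CPM in EED-/- libraries, against 0.462, 0.429 and 0.827 CPM in WT libraries (3.17-fold, edgeR adjusted p = 0.0074). Soat1, which esterifies cholesterol for storage, rose 1.55-fold (adjusted p = 0.0473), a call lost with limma-voom and without any 1 of the 6 libraries. The Apoe receptor Lrp8 fell by 0.89 on the log2 scale, and the sterol exporter Abcg1 fell by 0.79. Counts of this list moved to 4 higher and 2 lower with upper-quartile scaling, library size alone or no low-count filter, and to 1 and 2 without EED-/- replicate 1 or 2 or WT replicate 3. Lrp8 is also a neuronal reelin receptor. Of the granule neuron markers 12 of 12 were called lower, and the part of these neurons in the fall of Lrp8 was not tested.

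Cst7 (ENSMUSG00000068129, chr2:150570415-150578944, plus strand) encodes cystatin F, an inhibitor of lysosomal cysteine proteases that healthy brain barely expresses. It had 5, 3 and 16 counts in EED-/- libraries and 1, 1 and 2 counts in WT libraries, or 0.237, 0.141 and 0.783 CPM against 0.0513, 0.0537 and 0.103 CPM. The groups did not overlap, but the sums of 24 and 4 counts left the gene below the filter. Without that filter the log2 fold change from edgeR was 2.39 (SE 0.81, adjusted p = 0.0422), whereas that from DESeq2 was 2.49 (SE 1.28, adjusted p = 0.168) and the authors' deposited table lists an adjusted p of 0.166. The 2 tools thus differed on whether the gene passed.

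Gpnmb (ENSMUSG00000029816, chr6:49036546-49070929, plus strand) encodes a transmembrane glycoprotein of melanosomes and phagocytic macrophages. Its level was 2.18, 2.40 and 5.24 CPM in EED-/- libraries, against 2.16, 1.18 and 1.40 CPM in WT libraries. The lowest EED-/- library exceeded the highest WT library by 1.01-fold only, so that EED-/- replicate 1 and WT replicate 1 were level. The log2 fold change of 1.05 (SE 0.39) did not pass (edgeR adjusted p = 0.0863), and was 0.59 without EED-/- replicate 3. Without the low-count filter it passed (adjusted p = 0.0361). Lysosomal genes and MiT family regulators, the class that drives Gpnmb in other cells, had a median log2 fold change of 0.00. Of 14 tested, 1 was called higher, against 11.7% of all tested genes. Mcoln1 and Tfe3 were called lower (log2 fold changes -0.54 and -0.41), against 14.1% of all tested genes. The call of Tfe3 was lost with every other scaling, filter and tool except limma-voom and without any 1 library other than WT replicate 2, and 3 and 2 genes were called higher without WT replicates 1 and 2.

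Spp1 (ENSMUSG00000029304, chr5:104435118-104441050, plus strand) encodes osteopontin, a secreted ligand of integrins and CD44. It had 29.2, 34.2 and 65.3 CPM in EED-/- libraries, against 12.5, 27.8 and 21.0 CPM in WT libraries. The lowest EED-/- library was 1.05-fold above the highest WT library, and the WT libraries themselves spread widely. The log2 fold change was 1.07 with an SE of 0.37 (edgeR adjusted p = 0.0752), a miss that became a call with DESeq2 (adjusted p = 0.0037) and with library size alone (adjusted p = 0.04999). Reads shared with the overlapping gene model Gm42793, which held 18 counts in all EED-/- and 5 in all WT libraries, could have been split between them.

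Osteopontin's receptors and partners were higher in part, with a median log2 fold change of 0.55. Of 11 tested, 6 were called higher, against 11.7% of all tested genes, and 0 lower, against 14.1%. Cd44 averaged 11.2 ± 1.97 CPM in EED-/- and 4.95 ± 0.493 CPM in WT libraries (2.26-fold, edgeR adjusted p = 0.0024). Itga9 rose 2.0-fold, Icam1 1.98-fold and Itgam, the CD11b chain of microglia and other myeloid cells, 1.80-fold. Itgb1 rose by 0.55 and Itgb2, the beta chain that pairs with CD11b and CD11c, by 0.89 on the log2 scale. Values of 0.09 for Itgav and 0.29 for Itgb3, which form the classical osteopontin receptor, did not pass.

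Igf1 (ENSMUSG00000020053, chr10:87858265-87937042, plus strand) encodes insulin-like growth factor 1, a trophic factor that microglia of the early postnatal white matter secrete. Its level was 28.8, 27.3 and 36.6 CPM in EED-/- libraries, against 6.21, 14.2 and 11.7 CPM in WT libraries. All EED-/- libraries were above all WT libraries, with WT replicate 1 the lowest. Igf1 rose 2.89-fold (log2 fold change 1.53, SE 0.28, edgeR adjusted p = 0.0059). The antisense gene Igf1os overlaps it and held 4 counts in all EED-/- and 1 count in all WT libraries; the labels do not say whether counting used strand.

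Of 13 tested genes of the Igf1 receptor and its binding proteins, 5 were called higher, against 11.7% of all tested genes, and 1 lower, against 14.1%. Their median log2 fold change was 0.09. Pappa, a protease that frees Igf1 from its binding proteins, averaged 11.4 ± 1.18 CPM in EED-/- and 3.26 ± 0.618 CPM in WT libraries (3.48-fold, edgeR adjusted p = 0.000444). Igf2 rose 2.61-fold, Igfbp2 2.06-fold and Igfbp4 1.96-fold, and the adaptor Irs1 rose by 0.47 on the log2 scale. The receptor Igf1r fell by 0.44 on the log2 scale (adjusted p = 0.0204), and 0 genes of the list were called lower with upper-quartile scaling or without EED-/- replicate 1, EED-/- replicate 2 or WT replicate 1, against 2 without EED-/- replicate 3 or WT replicate 2. Fibroblasts and muscle express Igf1, Igf2 and several of these binding proteins; 9 of 10 listed meningeal and perivascular fibroblast markers and all 12 muscle markers were called higher, and their part in these levels was not tested.

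Per kilobase of exon, taken as the union of all annotated exons, Apoe was the most abundant at 702 CPM per kb in EED-/- and 608 CPM per kb in WT libraries. Spp1 followed at 26.0 ± 11.9 and 12.4 ± 4.64 CPM per kb, and Tyrobp at 13.6 ± 3.19 and 5.68 ± 0.292 CPM per kb, in EED-/- and WT libraries (SD, n = 3 each). Next in EED-/- libraries came Igf1 at 3.12, Lpl at 2.26, Trem2 at 2.24, Clec7a at 1.32, Itgax at 0.694, Gpnmb at 0.502 and Cst7 at 0.393 CPM per kb. Among the last 7, neighbours in this order did not differ beyond their SDs. WT libraries held 1.08 CPM per kb of Igf1, 0.860 of Trem2, 0.431 of Lpl, 0.242 of Gpnmb, 0.140 of Clec7a, 0.0704 of Cst7 and 0.0505 of Itgax. The order depends on the length used. Divided by the length of the principal transcript, an option chosen after the data were seen, Igf1 had 18.5 and Tyrobp 16.1 CPM per kb in EED-/- libraries, and Trem2 at 10.2 exceeded Lpl at 5.76.

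**Figure D2:**
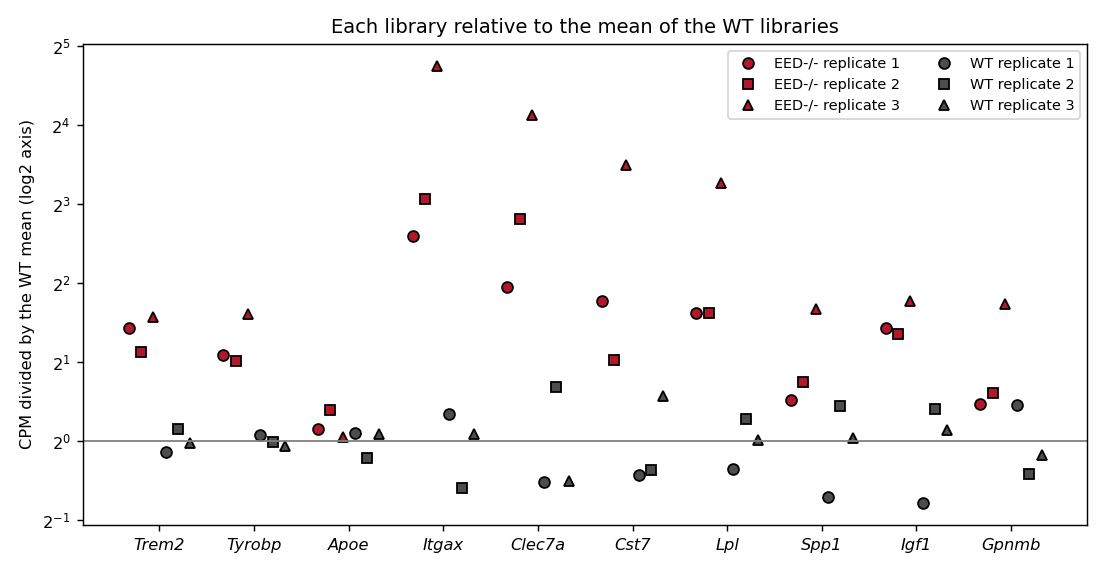
CPM of each library divided by the mean of the WT libraries, on a log2 axis, for the 10 genes in EED-/- libraries (red) and WT libraries (grey); the marker gives the replicate number and the line stands at the WT mean. EED-/- replicate 3 exceeds the mean of EED-/- replicates 1 and 2 by 3.14-fold or more for Itgax, Clec7a, Cst7 and Lpl, and by 1.21-fold to 2.29-fold for Trem2, Igf1, Tyrobp, Spp1 and Gpnmb.

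The EED-/- libraries were not alike for these genes, and over all genes neither were the WT libraries. Over all genes the widest pair was of WT libraries (chi-square per degree of freedom 55.2, against 24.4 for the widest EED-/- pair). Of the 10 genes only Igf1 spread more between WT than between EED-/- libraries (highest over lowest 2.28 and 1.34). EED-/- replicate 3 exceeded the mean of EED-/- replicates 1 and 2 by 3.73-fold for Itgax, 3.20-fold for Clec7a, 3.14-fold for Lpl, 2.29-fold for Gpnmb and 2.06-fold for Spp1, and by 4.15-fold for the untested Cst7. The ratio was 1.47 for Tyrobp, 1.31 for Igf1, 1.21 for Trem2 and 0.856 for Apoe. A ratio of at least 2 was thus met by 5 of the 9 tested genes, against 318 of 18075 tested genes with a ratio (1.76%); this measure was chosen after the values were seen and is a description. Among homeostatic microglia genes the median ratio was 1.13 and 0 of 22 reached 2. Single genes of that list lay on both sides of the median. In EED-/- replicates 1, 2 and 3, Ctss was at 25.33, 21.73 and 39.45 CPM and Tmem119 at 13.07, 15.43 and 10.38 CPM. Marker lists of other cells differed in this ratio: its median was 0.255 for blood, 0.699 for skeletal muscle, 0.726 for border-associated macrophages, 0.758 for proliferation genes and 0.878 for fibroblasts. It was 1.04 for oligodendrocytes, 1.05 for dendritic cells, 1.08 for astrocytes and Bergmann glia, 1.17 for monocytes, 1.21 for granule neurons and 1.37 for neutrophils. With EED-/- replicate 3 left out the same 6 genes were called higher.

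The label of microglia was checked against homeostatic markers, of which 22 of 22 were tested, 17 were called higher, 0 lower, and the median log2 fold change was 0.95 (12 were called higher without WT replicate 3, and 1 was called lower without WT replicate 2). Their summed level was 546, 546 and 619 CPM in EED-/- libraries and 336, 329.6 and 319.5 CPM in WT libraries. Fcrls rose 2.54-fold (edgeR adjusted p = 0.00021), and the fractalkine receptor Cx3cr1 was at 48.9, 50.2 and 55.7 CPM in EED-/- libraries, against 28.3, 25.7 and 26.0 CPM in WT libraries. The microglial transcription factor Sall1 rose 1.98-fold. P2ry12 and Tmem119 did not pass (log2 fold changes 0.94 and 0.52, adjusted p = 0.0629 and 0.0883). Of 7 tested growth factor genes of microglia 5 were called higher, with a median log2 fold change of 0.63: the ligand Cx3cl1 rose 1.68-fold, the receptor Csf1r 1.67-fold, its ligand Csf1 1.43-fold, Tgfbr2 1.55-fold and Tgfbr1 by 0.92 on the log2 scale. Csf2 was listed at 0 in every library.

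Since homeostatic genes rose too, each gene was also measured against them: the mean log2 CPM of the 22 homeostatic genes was subtracted in each library, and the difference between genotypes was fitted with limma across all tested genes. That mean was 4.11 ± 0.0771 in EED-/- and 3.27 ± 0.086 in WT libraries (SD, n = 3 each), a difference of 0.84. Relative to it, 5 of the 9 genes were higher, against 1.97% of all tested genes, and 1 was lower, against 72.2%. Itgax and Clec7a, among those 5, passed the low-count filter through their EED-/- libraries, so this count describes the tested genes only. Itgax rose by 2.22 (SE 0.49, adjusted p = 0.0028), Clec7a by 1.91 (SE 0.48, adjusted p = 0.0058), Lpl by 1.33 (SE 0.37, adjusted p = 0.0099), Igf1 by 0.75 (SE 0.25, adjusted p = 0.0206) and Trem2 by 0.52 (SE 0.16, adjusted p = 0.016) on the log2 scale beyond homeostatic genes. Tyrobp (0.38, adjusted p = 0.0979), Spp1 (0.21, adjusted p = 0.543) and Gpnmb (0.10, adjusted p = 0.804) did not pass the test against the list. Apoe was lower relative to the list (-0.63, SE 0.18, adjusted p = 0.011). Astrocytes also make Apoe, muscle makes Lpl, and fibroblasts and muscle express Igf1. For these genes a difference relative to the list need not be one within microglia, and the part of the other cells was not tested. Without EED-/- replicate 3 the calls were Itgax, Clec7a and Lpl. Trem2 also missed without EED-/- replicate 1 (adjusted p = 0.0692), without WT replicate 3 (0.0521) and with the list's median in place of its mean (0.1), and Lpl without WT replicate 1 (0.0607).

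**Figure D3:**
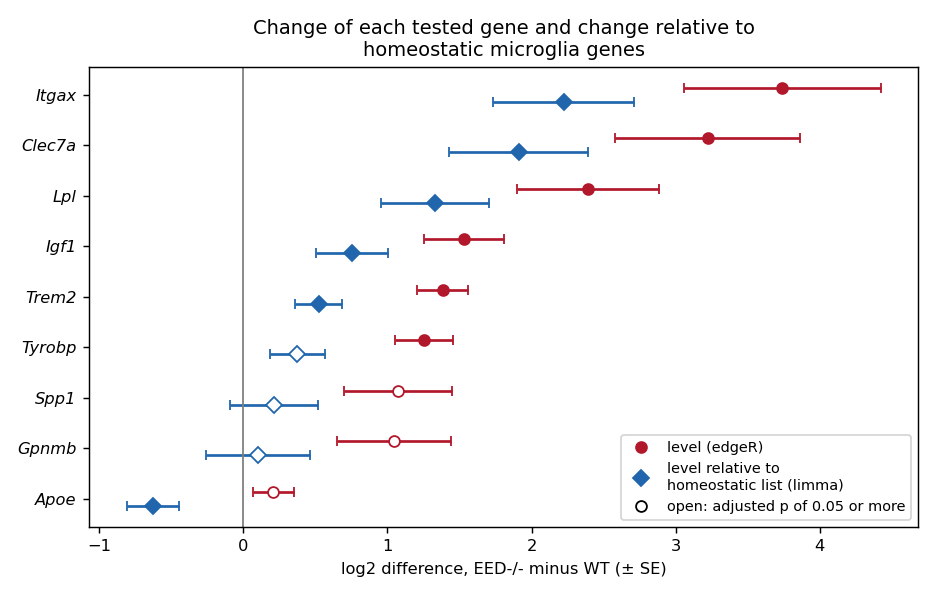
Log2 difference of EED-/- minus WT for each of the 9 tested genes, with SE bars, as the change in level from edgeR (red circles) and as the change relative to the mean of homeostatic microglia genes from limma (blue diamonds). Open symbols have an adjusted p of 0.05 or more; Itgax, Clec7a, Lpl, Igf1 and Trem2 are filled in both, Tyrobp in level only and Apoe on the negative side only.

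Further genes described in the disease-associated state numbered 36, of which 33 were tested, with a median log2 fold change of 0.51. Calls of higher were made for 14, against 11.7% of all tested genes, and of lower for 1, against 14.1%. The chemokine Ccl3 had 18, 13 and 33 counts in EED-/- libraries and 2, 2 and 0 counts in WT libraries (edgeR adjusted p = 0.0057). Lyz2, the lysozyme of macrophages, was at 9.33, 8.84 and 12.2 CPM in EED-/- libraries, against 4.57, 4.67 and 5.53 CPM in WT libraries (2.05-fold, adjusted p = 0.0045). The lysosomal enzyme Gusb rose 1.58-fold and the metalloprotease inhibitor Timp2 1.45-fold. The phagocyte markers Cd68 and Cd52 rose by 1.22 and 2.04 and the chemokine Ccl6 by 1.99 on the log2 scale. By contrast Axl (0.12), Cd9 (0.03), Cd63 (0.22), Ctsb (0.05), Ctsl (0.16) and Fth1 (-0.04) did not pass. Nor, among others, did Cybb (0.81), Lgals3 (0.64), Capg (0.49) and Lilrb4a (edgeR adjusted p = 0.0508). Other cells of the cerebellum express some genes of this list as well, and their part in these results was not tested. Ank was the gene called lower (-0.40). That call was lost without any 1 library other than WT replicate 2, with library size alone or upper-quartile scaling, and without the low-count filter. The ratio of EED-/- replicate 3 to replicates 1 and 2 was at least 2 for 4 of the 33, namely Ccl3 (2.21), Ccl6 (2.32), Cd52 (2.95) and Lilrb4a (3.17), with a median of 1.05. Without WT replicate 3, 9 of this list were called higher.

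Other cells that express some of these genes were looked for by their markers. The counts of calls below stand against 11.7% of all tested genes called higher and 14.1% called lower. Border-associated macrophages, which share Tyrobp and Apoe with microglia, had 4 of 11 tested markers called higher (1 without EED-/- replicate 2 or WT replicate 3, and 2 without EED-/- replicate 1) and a summed level of 51.4 to 77.4 CPM in EED-/- and 36.7 to 40.2 CPM in WT libraries; Mrc1 rose 2.22-fold. In EED-/- replicate 3, highest for Itgax and Clec7a, this sum was the lowest of its genotype, while those of dendritic cells and neutrophils were the highest. Most monocyte markers were sparse, with 5 of 9 too low to test, among them Ccr2, Plac8, Chil3 and Hp, and 2 of the other 4 (S100a4 and Fn1) called higher, against 0 or 1 without any 1 library. Fn1 made up most of the summed level of this list. It averaged 186.2 of 211.9 CPM in EED-/- and 134.3 of 159.2 CPM in WT libraries. Of 10 neutrophil markers 6 were tested and 2 (Csf3r and Mpo) were called higher, against 4 without EED-/- replicate 2, 0 without WT replicate 3 and 1 without EED-/- replicate 1, EED-/- replicate 3 or WT replicate 2. Their sum was 8.70 to 16.1 CPM in EED-/- and 6.05 to 9.08 CPM in WT libraries. Of 10 lymphocyte markers, 1 could be tested and 0 were called, and their sum was 2.16 to 2.94 CPM in EED-/- and 1.6 to 2.31 CPM in WT libraries. Dendritic cell markers, whose cells express Itgax, gave 2 of 7 tested called higher (Cd74 and H2-Eb1, of which H2-Eb1 was lost without any 1 library other than EED-/- replicate 3) and 1 lower (Zbtb46), and summed to 56.5 to 75.8 CPM in EED-/- and 92.1 to 109.7 CPM in WT libraries. Zbtb46 made up much of that sum. The other 9 genes, set apart after the values were seen, summed to 34.6, 41.1 and 45.2 CPM in EED-/- and 33.3, 27.7 and 24.96 CPM in WT libraries, in the order of Itgax among EED-/- libraries. H2-Ab1 exceeded the mean of EED-/- replicates 1 and 2 by 2.94-fold in EED-/- replicate 3. Blood markers gave 0 calls in 5 tested, 5 without EED-/- replicate 3 and 1 without EED-/- replicate 2 or WT replicate 2, and spread from 357 to 1776 CPM in EED-/- and 256 to 556 CPM in WT libraries. Of 9 proliferation genes 6 were called higher and 0 lower (4 higher without EED-/- replicate 1 or 2), with a median log2 fold change of 1.14 and sums of 145, 132 and 112 CPM in EED-/- and 74.9, 75.6 and 84.3 CPM in WT libraries; Top2a rose 2.47-fold. Of 10 oligodendrocyte markers 4 (Opalin, Mog, Mal and Mobp) were called lower and 0 higher, with a median log2 fold change of -0.28 (2 lower with upper-quartile scaling or without EED-/- replicate 1, EED-/- replicate 2 or WT replicate 3). The part of these cells in the levels of the 10 genes was not tested.

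**Figure D4:**
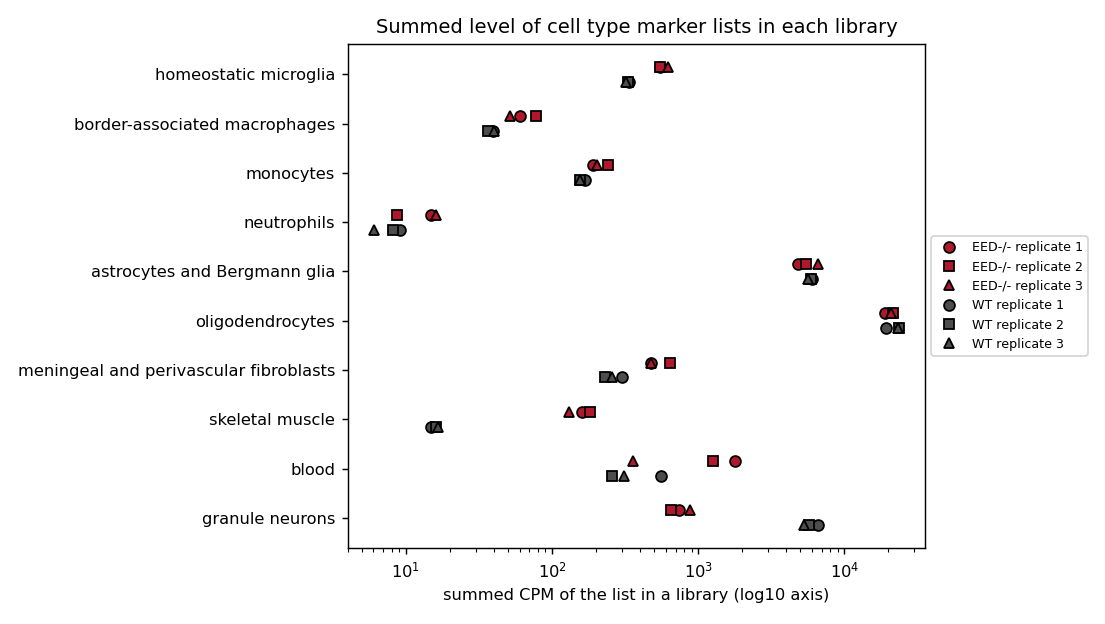
Summed CPM, on a log10 axis, of 10 lists of cell type markers in each EED-/- library (red, upper row of each pair) and WT library (grey, lower row); the marker gives the replicate number. Fn1 makes up most of the monocyte sum. The homeostatic microglia sum is higher in every EED-/- library (546 to 619 CPM) than in every WT library (319.5 to 336 CPM), skeletal muscle markers are higher and granule neuron markers are lower in every EED-/- library (655 to 882 CPM, against 5302 to 6616 CPM in WT).

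Genes with the most similar profile over the 6 libraries were listed for each called gene among the 12473 or 12474 other tested genes of at least 5 CPM, by the root-mean-square difference of centred log2 CPM. Nearest to Trem2 were Osmr (0.10), Slit2, Cobl, Agtr2 and Pros1, and nearest to Tyrobp were Cd44 (0.09), Osmr, Cfap54, Irf8 and Pakap. For Clec7a and for Itgax the first was Lpl, at 0.43 and 0.60, and the next included the complement gene C4b for both. Lpl itself was nearest to Cd109 (0.39), C4b, Zdbf2, the macrophage gene Mpeg1 and Postn. Igf1 was nearest to Zfhx4 (0.10), Nhs, Zdbf2, Htr2a and Zkscan16.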

How the data were processed

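Salmon 1.1.0, Trimmomatic 0.36, DESeq2 1.26.0, Bowtie2 2.4.1, MACS2 and the builds GRCm38 and mm10 are named in the submitters' processing notes, without the role of each. The deposited table of estimated counts per gene and library was not scaled between libraries. The authors' deposited table gives mean normalised signal, log2 fold change, a Wald score, a p-value and symbols, per the file headers those of DESeq2. A further 6 ChIP-seq samples were not analysed here.

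Estimated counts were rounded, filtered with filterByExpr, scaled by TMM and tested two-sided with edgeR 4.0.16 (quasi-likelihood, genotype the only term) in R 4.3.3, at a Benjamini-Hochberg adjusted p of 0.05 over all tested genes. Levels relative to homeostatic genes used log2 CPM with a prior count of 2 in limma 3.58.1. Both fits were also run on counts simulated with the means and dispersions of these data, an outcome not reported here. The simulation held no outlying library, so it cannot show how the fits treat EED-/- replicate 3. DESeq2 1.42.0 and other settings were alternatives. Positions came from the GRCm38 annotation and promoters from RefSeq. No replicate pair agreed within sampling noise (chi-square divided by its degrees of freedom, 8.36 to 24.4 between EED-/- libraries and 12.97 to 55.2 between WT libraries). Salmon splits reads shared by similar genes.

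The 10 genes, the lists and the tests were chosen with earlier results of these data known. Named were the 10 genes, Eed, of each list the called genes with the smallest adjusted p (at most 4), and the 5 genes nearest in profile to each called gene; any other gene was picked with its values in view, to complete a count or show a gene that did not pass. A few listed genes are not reported here.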

Additional observations from a re-analysis of the deposited data

How the results depend on the processing

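Between 5 and 7 of the 9 or 10 tested genes were called higher, and 0 lower, under every scaling, filter, tool and left-out library that was run. It was 6 with RLE or upper-quartile scaling, with a minimum of 1 CPM in 3 libraries, with limma-voom and without any 1 EED-/- replicate, 7 with library size alone or DESeq2 (adding Spp1), 7 without the low-count filter (adding Cst7 and Gpnmb, losing Lpl), and 5 without any 1 WT replicate (losing Lpl). Over all genes, leaving out 1 library at a time gave 1205 to 2176 genes called higher and 1335 to 2476 called lower, and 3 to 5 genes called higher relative to homeostatic genes. Those relative differences were called in neither direction for Spp1, which ran between -0.0917 and 0.43, or for Gpnmb, between -0.2441 and 0.376; the cause of the change of sign was not tested.

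Replicate numbers did not pair the libraries: the correlations of deviations for numbers 1, 2 and 3 were 0.03, -0.23 and -0.0012. With the replicate block 7 genes were called higher, Spp1 among them (log2 fold change 1.05, adjusted p = 0.0253), 4 were higher relative to homeostatic genes (Trem2 lost, adjusted p = 0.052), the lower calls of Lyn, Ank and Igf1r were lost, and 1505 and 1706 of all genes were called higher and lower. Genes under 1 CPM, such as Itgax and Clec7a in WT libraries and Cst7 in all, rest on few counts, which limits the precision of their folds.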
